A study of Rattus norvegicus with 21 samples.

Results

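KLF2 binding was mapped by CUT&Tag in 1 library of KLF2-overexpressing NRVMs. These are neonatal rat ventricular myocytes, heart muscle cells taken from newborn rats and grown in primary culture. The deposited list holds 3065 peaks on the rat build mRatBN7.2, and the 237 peaks whose chromosome field is 3 are described here. They make up 7.73% of all peaks and 8.95% of the 2647 peaks on the 22 assembled chromosomes (1 to 20, X and Y). The members were chosen by chromosome, with the number and enrichment of these peaks already known, so both are given as description and no test was made. The label of this library gives neither an antibody, a control library nor whether phenylephrine was present, and the library has no replicate. The series also holds 20 RNA libraries, which were not analysed here.

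KLF2 is a zinc finger transcription factor of the Krüppel-like family, which binds CACCC boxes and related GC-rich elements. It is best known in vascular endothelium, where blood flow induces it and it restrains inflammatory and clotting genes. In CUT&Tag an antibody tethers a transposase to the bound protein, and the transposase cuts and tags the DNA nearby, so a peak is a place where tagged fragments pile up above a background. In the rat the ribosomal RNA genes, which are tandem repeats, lie on chromosomes 3, 11 and 12, and assemblies hold such arrays only in part. No genome sequence or gene annotation of build mRatBN7.2 was used here, so the peaks are given by position, without sequences or nearby genes.

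Chromosome 3 held more peaks than any assembled chromosome except chromosome 1, which had 352. The other 21 chromosomes held 7 to 352 peaks, with a median of 112. Per Mb up to the last peak, which lay 169 Mb along the chromosome, the density was 1.40 peaks. That placed chromosome 3 sixth of 22, behind chromosomes 12, 19, 10, 16 and 20, the first of which had 2.08 per Mb. The median over the other chromosomes was 0.875 per Mb.

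**Figure D1:**
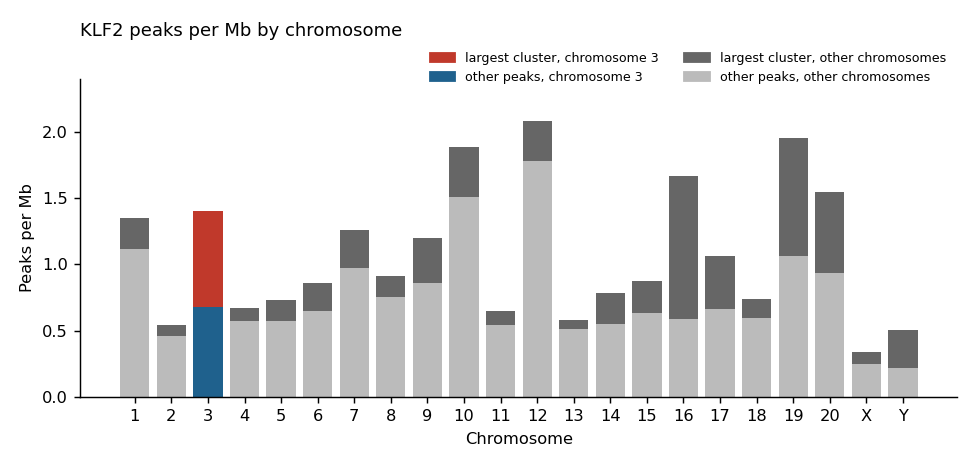
Peaks per Mb on each assembled chromosome, counted up to its last peak and split into the cluster with most peaks (summits linked when under 1 Mb apart) and all other peaks. The cluster on chromosome 3 holds 123 of its 237 peaks, and the remaining 114 give 0.674 per Mb.

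The number and the low enrichment of the chromosome 3 peaks both lay in 1 stretch at the start of the chromosome. Linking summits less than 1 Mb apart put 123 peaks (51.9%) into a block at chr3:194290-2650095, called the proximal block below. This block spans 2.46 Mb, which is 1.45% of the chromosome up to its last peak, and it held 58.4% of the bases under chromosome 3 peaks. The other 114 peaks lay between 5152610 and 169034109. The block had 50.1 peaks per Mb of its span. Without it, chromosome 3 had 0.674 peaks per Mb, which would place it 16th of 22 if the other chromosomes were left whole.

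Other chromosomes also had clusters, and the comparison is even only when the largest is left out of each. Chromosome 3 then came ninth of 22, and the other 21 chromosomes together had 0.73 peaks per Mb. The share of peaks in the largest cluster was higher on chromosome 16 (64.5%) and on chromosome Y (57.1%, of only 7 peaks) and ranged down to 11.3% on chromosome 13. The first and second Mb of chromosome 3 held 49 and 52 peaks, the third and first highest counts of any 1 Mb bin of the assembled chromosomes. A bin of chromosome 16 came between them with 50 peaks.

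A block with this many peaks at the very start was not shared by the other chromosomes. The window of 3 Mb used here was not planned beforehand, and backgrounds in it are given with the other clusters below. All 123 block peaks, and no others of chromosome 3, had summits in the first 3 Mb. The first 3 Mb of the other 21 chromosomes held 1 to 23 peaks, with a median of 5 and the highest number on chromosome 9. Chromosomes 11 and 12, the other carriers of ribosomal RNA genes, held 1 and 17 peaks there. Where these genes lie on the 3 chromosomes in this build was not looked at, so the counts do not bear on them. Whether the block holds ribosomal DNA or another repeat was not tested.

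Enrichment, the deposited ratio of signal at the summit to a background that is not given in the sources used here, differed between the block and the rest of the chromosome. The median over all 237 peaks was 3.83 (quartiles 3.14 and 4.76), the lowest of the 22 chromosomes, whose other medians ran from 3.91 to 4.97. In the block it was 3.17 (quartiles 2.68 and 3.84). Outside the block it was 4.76 (quartiles 3.87 and 5.59), against 4.55 (quartiles 3.73 and 5.78) over the 2410 peaks of the other chromosomes. With the largest cluster of each left out, the 1795 peaks of the other chromosomes also had a median of 4.76 (quartiles 3.93 and 5.81). A fold under 3 was found for 53 of 123 block peaks, or 43.1%, but for 2 of 114 peaks elsewhere on the chromosome. Of the 2410 peaks on the other chromosomes, 8.46% were under that fold, and 4.35% when the largest cluster of each was left out. These shares depend on the background, as set out below.

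Significance did not follow the fold. The peak caller's −log10 q had a median of 9.08 in the block and of 6.84 outside it. Of the 10 chromosome 3 peaks with the highest −log10 q, 8 lay in the block, and of the 10 with the highest fold 3 did. The lowest −log10 q was 1.63, followed by 5 peaks tied at 2.19, and all 6 lay outside the block. The weakest was chr3:141182458-141182697, with a fold of 3.10.

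Block peaks were also wider. Their median width was 474 bases (quartiles 344 and 712), against 378.5 bases (quartiles 290 and 468) outside the block and 429.5 bases on the other chromosomes. Over the whole of chromosome 3 the median was 415 bases, within the 379 to 610 bases of the other chromosomes. Widths over 1000 bases were found for 12 block peaks (9.76%), 1 other peak of the chromosome (0.877%) and 6.02% of peaks on the other chromosomes. The 10 widest peaks ran from 1141 to 1596 bases, and 9 of them lay in the block. The exception was chr3:15689958-15691232, 1275 bases wide with a fold of 5.79.

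**Figure D2:**
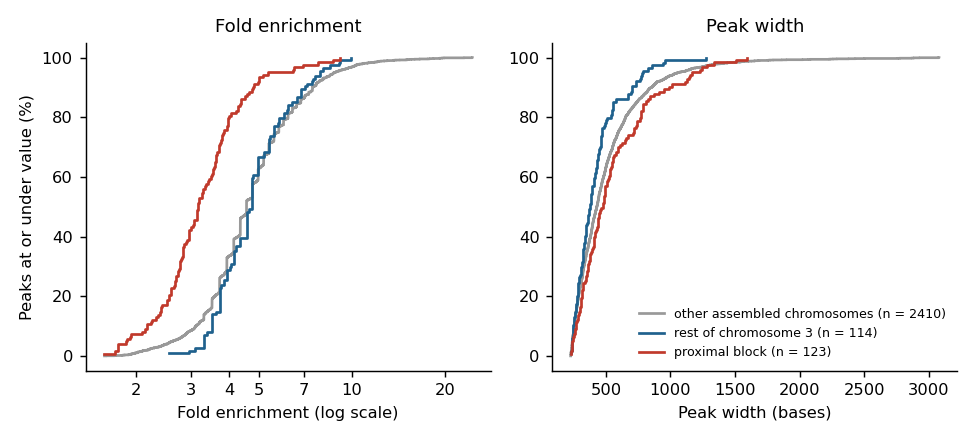
Cumulative share of peaks at or under each fold enrichment (left, log scale) and width in bases (right) for the proximal block, the rest of chromosome 3 and the other assembled chromosomes. The curve of the block lies left of the others for fold, with a median of 3.17 against 4.76 and 4.55, and right of them for most of the range of widths.

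The deposited values allowed the fold to be split into its parts. Every chromosome 3 peak had a whole number, the height, and a background for which (height + 1) / (background + 1) gave the listed fold and a Poisson tail gave the listed p-value. The height counts reads or fragments stacked at the summit and the background is the number expected there. Over the 237 peaks the listed −log10 p was matched to within 0.000745%, while the next best whole number missed by at least 0.304%. This arithmetic is that of a common peak caller and was inferred from the numbers. The lowest background was 3.83, and 56.8% of all assembled-chromosome peaks had this level to within 0.001.

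In the block both parts were high, and the background more so. Only 3 of 123 block peaks had the lowest background, against 88 of 114 outside the block, or 77.2%. No peak of the assembled chromosomes had a height under 14, which over the lowest background gives a fold of 3.10. A peak at that background thus could not have a fold under 3, and the counts under 3 follow from it in part. Median background was 15.9 in the block (quartiles 11.2 and 26.6), which is 4.14 times the lowest level. A background over 2 times the lowest level was found for 110 block peaks, 3 other peaks of chromosome 3 and 21.2% of peaks on the other chromosomes. The median height was 56 in the block (quartiles 42 and 87) and 22 outside it (quartiles 19 and 28). All 10 of the tallest chromosome 3 peaks lay in the block. Set against the lowest background instead of their own, the block peaks would have a median ratio of 11.8 and the other peaks one of 4.76. For the 88 outside peaks at the lowest background this ratio is their own fold. A peak over a higher background needs a greater height to be called, so the ratio restates the heights and is no separate result.

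**Figure D3:**
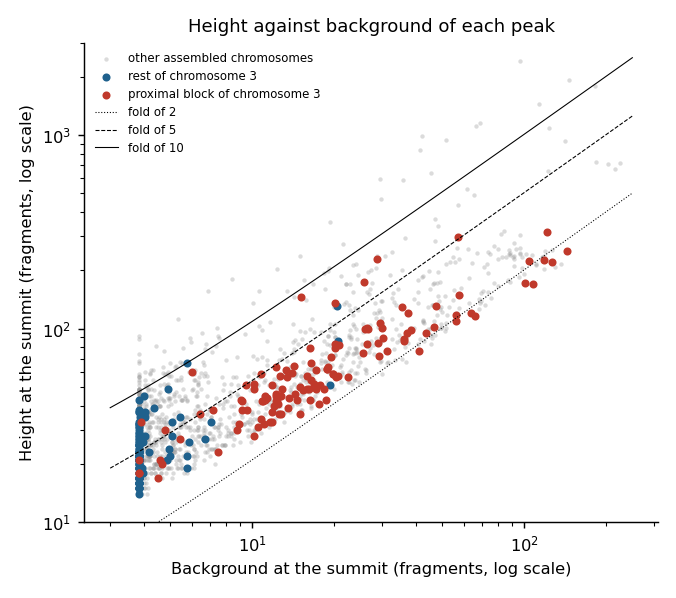
Height against background at the summit, both in fragments on log scales, for each peak of the proximal block, the rest of chromosome 3 and the other assembled chromosomes, with lines at folds of 2, 5 and 10. Most block peaks sit at backgrounds of 10 to 40 and below the line for a fold of 5, while most other chromosome 3 peaks stand at the lowest background of 3.83.

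The block was not uniform. Its 4 widest gaps between neighbouring summits, 614, 231, 204 and 182 kb, divide it into 5 segments, a division made after the positions were seen. The first, chr3:194290-508758, held 18 peaks with a median fold of 3.90. Background there had a median of 9.51 and heights ran from 21 to 58.

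The second segment, chr3:690257-1265961, was the largest, with 63 peaks in 576 kb. Its median fold was 3.19, and 26 of its peaks were under 3. Background had a median of 16.5 and reached 38.4. Nevertheless this segment included peaks of high fold. At chr3:1259421-1259856 a height of 146 stood over a background of 15.1, a fold of 9.16 with a −log10 q of 84.7. The peak chr3:810744-811513 had a fold of 8.71, from a height of 60 over a background of 6.01. The widest peak of the chromosome, chr3:703187-704782, was also here, 1596 bases wide with a fold of 3.14.

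The third segment, chr3:1469556-1602856, held 20 peaks in 133 kb, with a median fold of 3.33 and a median background of 15.1. It contained the chromosome's most significant peak, chr3:1507165-1508410. There a height of 229 stood over a background of 28.7, giving a fold of 7.75 and a −log10 q of 117. The median height of the segment was 53, and 3 in 4 of its peaks had a height of at most 58.

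The fourth segment, chr3:2216576-2267249, had the lowest enrichment and the most signal. It packed 18 peaks into 50.7 kb, covering 19.6% of its bases, with a median fold of 2.00 and 17 of 18 peaks under a fold of 3. Background ranged from 31.4 to 144 and heights from 77 to 315. From left to right the background climbed from 31.4 at chr3:2216576-2217058 to 144 at chr3:2232925-2233469. It then fell to 41.0 at chr3:2252670-2252909 and stood at 57.1 at the last peak. The tallest peak of chromosome 3, chr3:2228469-2229594, reached a height of 315 over a background of 121, a fold of only 2.59. The lowest fold of all assembled-chromosome peaks, 1.57, was at chr3:2239096-2239338, with a height of 170 over a background of 108. One peak of the segment stood clear, chr3:2266099-2267249, with a height of 297 over a background of 57.1, a fold of 5.13 and a −log10 q of 106.

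The fifth segment, chr3:2497578-2650095, held 4 weak peaks with heights of 17 to 20 and backgrounds of 3.83 to 4.66. Their median height of 18 was nearer to the 22 of the rest of the chromosome than to the 56 of the whole block.

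**Figure D4:**
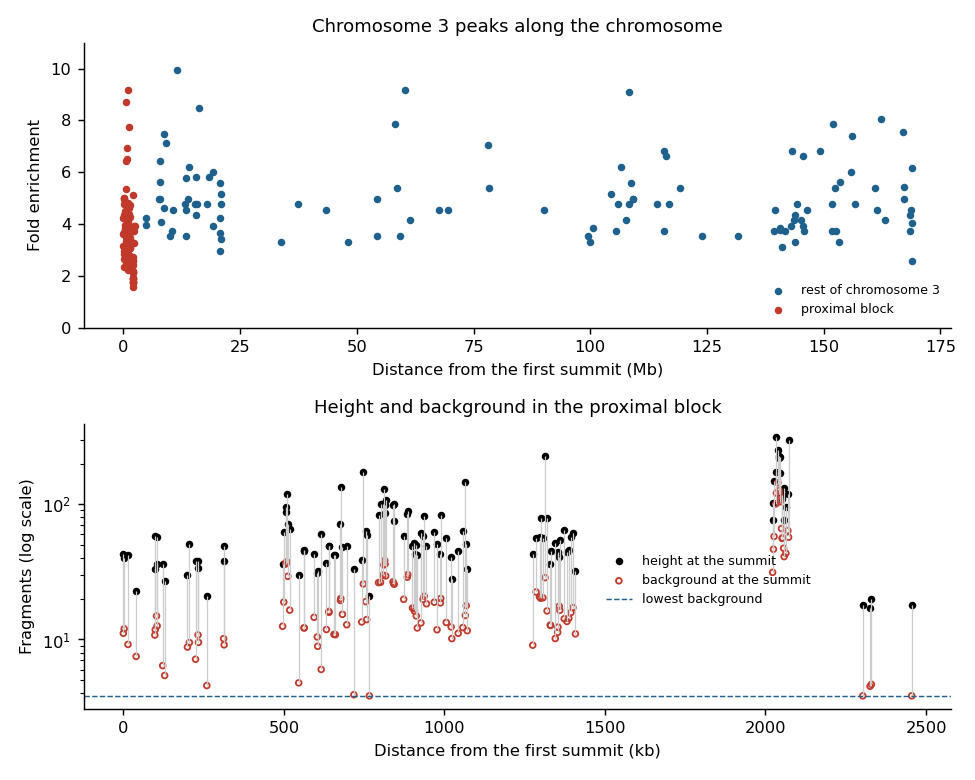
Fold enrichment of the 237 chromosome 3 peaks by distance from the first summit in Mb (top), and height and background of the 123 block peaks by distance in kb, in fragments on a log scale (bottom). The 123 block peaks stand in a narrow stretch at the left of the top panel, and the segment of 18 peaks in the right part of the bottom panel has the highest backgrounds, up to 144.

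Summits in the block lay close together, which follows in part from forming it by linking close summits. The median distance between neighbours was 6.21 kb (quartiles 2.60 and 14.3), against 452 kb in the rest of the chromosome. On the other chromosomes it was 163 kb, taken over whole chromosomes and not over their own clusters, so these distances are description only. Of 122 neighbouring pairs in the block, 80 were under 10 kb apart. No single spacing dominated. Among all pairs up to 60 kb apart, counted in bins of 1 kb, the fullest bin held 25 pairs at 6 to 7 kb, followed by 21 pairs at 10 to 11 kb and 19 at 1 to 2 kb. The median bin held 11. With a link of 50 kb chromosome 3 had 6 clusters of at least 5 peaks, holding 49.8% of its peaks, against 22.4% on the other chromosomes. Of these 6 clusters, 5 were in the block. The sixth, chr3:20989200-21019899, held 5 peaks with a median fold of 3.64. The 22.4% pools the other chromosomes, which differed, and such clustering was not particular to chromosome 3. On chromosome 16, 1 cluster at this link held 55 of its 141 peaks, against 63 of 237 for the largest on chromosome 3.

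Clusters with raised background were also found on other chromosomes. The 91 linked peaks of chromosome 16 between 16841410 and 20947187 had a median fold of 3.50 and a median background of 10.5. On chromosome 1, 62 peaks between 52448988 and 55074770 had a median fold of 3.02 and a median background of 28.6. Median widths in these clusters were 491 and 517 bases, against 474 in the block. The next cluster by number of peaks, on chromosome 19, had a median width of 401 bases. The clusters of chromosomes 16 and 1 held 22.2 and 23.6 peaks per Mb of their span, against 50.1 in the block of chromosome 3. That contrast depends on the link of 1 Mb. At a link of 50 kb the largest cluster of chromosome 3 held 63 peaks at 109 per Mb, with a median fold of 3.19. On chromosome 16, 55 peaks between 19921645 and 20399179 lay at 115 per Mb, with a median fold of 2.85. On chromosome 9, 33 peaks between 9950333 and 10132628 lay at 181 per Mb, with a median fold of 3.14. At a link of 10 kb, the segment of 18 peaks ranked second by number of peaks among the clusters of all assembled chromosomes. The other clusters of at least 15 peaks were on chromosomes 1, 10 and 9. Chromosome 10 had 17 peaks between 370 and 45410, with a median fold of 2.55 and a median background of 92.0. On chromosome 1, 22 peaks between 55004540 and 55074770 had a median fold of 2.16 and a median background of 68.8. On chromosome 9, 15 peaks between 9972012 and 10027545 had a median fold of 2.29 and a median background of 49.6. In the first 3 Mb, the median background exceeded the 15.9 of chromosome 3 on chromosomes 2, 6, 7, 8, 10, 13, 16 and 19. It was lower on the others. The highest were 91.9 on chromosome 10 (18 peaks, median fold 2.57) and 91.5 on chromosome 6 (7 peaks, median fold 3.02). Chromosomes 13 and 16 had 1 peak each there. The 417 peaks on unplaced contigs had a median height of 56, the same as in the block, with a median background of 12.3 and a median fold of 4.09.

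Outside the block, the 114 peaks were sparse and most were low, with heights of 14 to 131 and 3 in 4 of them at 28 or less. Dividing the chromosome up to its last peak into 4 equal parts, they numbered 38, 13, 21 and 42 from start to end. Their median fold in these parts was 4.76, 4.55, 4.76 and 4.45. The loose groups here, linked at 1 Mb, included 12 peaks at chr3:7781559-11585749, 11 at chr3:143110432-146570015 and 9 at chr3:105743835-109325221. Median folds in these were 4.97, 4.14 and 4.97, and their median backgrounds were 3.88, 3.83 and 3.83.

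The chromosome's highest fold, 9.94, was outside the block at chr3:11585049-11585749, where a height of 66 stood over a background of 5.74. It was followed by chr3:60621466-60622410 with a fold of 9.18 and a height of 45. At chr3:108426618-108427124 a height of 43 over the lowest background gave a fold of 9.11. Peaks of similar fold thus differed in height, from 43 at this peak to 146 at chr3:1259421-1259856 in the block, whose fold was 9.16.

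The far end of the chromosome also had raised background. Outside the block, 8 peaks had a background over 1.5 times the lowest, and 3 of them lay within 6 kb of the last peak's end. These were chr3:169029529-169029773, chr3:169030465-169030919 and chr3:169033843-169034109, with backgrounds of 20.6, 20.5 and 19.4. Their heights were 86, 131 and 51 and their folds 4.03, 6.15 and 2.55.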

How the data were processed

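The peak list comes from 1 CUT&Tag library of KLF2-overexpressing NRVMs. Build mRatBN7.2 is from the submitters' processing notes, which also name Trim Galore, STAR and featureCounts without versions or roles. The aligner for this library, the peak caller, any control and the read depth are not given in the sources used here. The deposited columns hold start, end and summit, a whole-number score, a fold enrichment (a ratio), and −log10 p and q values. Positions are printed counted from 1.

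The peaks were not filtered. Chromosome length was taken as the end of the last peak. Clusters were formed by single linkage of summits under 50 kb apart, and the proximal block under 1 Mb. Height and background were solved from the deposited fold and −log10 p with a pseudocount of 1. A match within 0.1% was accepted, found for 3064 of 3065 peaks. Tested on 500 simulated peaks, all heights were recovered (100%). Peaks of the mitochondrial genome were left out of chromosome comparisons.

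The members and groups were chosen with earlier results of these data known, and the rule for named peaks took the 10 of highest fold, the 10 widest and the 5 of lowest −log10 q, where 5 peaks were tied for the last 4 places. Other peaks were named after their values were seen. The reference table is on build GRCr8 and the peaks on mRatBN7.2, so planned comparisons with genes, start sites and listed genes were not run. Of 30560 gene IDs in the deposited count tables, 0 matched that table, so expression was not compared. Python 3.11.15, numpy 2.4.6, pandas 2.3.3, scipy 1.17.1 and matplotlib 3.10.9 were used.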

Additional observations from a re-analysis of the deposited data

How the results depend on the processing

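Of 24 values recomputed under other settings, 12 stayed within 1.5 times the reported count, density or rank or, for medians, within the 95% binomial interval. A rank of 9 against 6, just at that limit, was counted among the 12. With peaks of −log10 q of at least 5 the median fold was 4.35 and the median width 462 bases, and the rank by density stayed at 6. A fold of at least 5 left 47 peaks. Without the cluster of 63 peaks the median fold was 4.22 and the rank was 10. The largest cluster held 18 peaks at a link of 10 kb and 123 at 1000 kb. Both removals that follow were chosen after seeing the data. Without the proximal block 114 peaks, a density of 0.674 per Mb, a rank of 16, a median fold of 4.76 and a median width of 378.5 bases remained. Without the largest 1 Mb-linked cluster of every chromosome the rank was 9. No paired analysis was possible because the peaks come from 1 library with no replicate. Peaks per annotated gene, peaks at start sites and expression of nearby genes were not run. The single library gives no error beyond counting, and its depth is unknown.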

Other observations

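Background in the proximal block changed over short distances. The peak chr3:960869-961137 had the lowest background, 3.83, with a height of 21, while its neighbours at chr3:951963-952732 and chr3:989020-989562 had backgrounds of 14.0 and 26.3. At chr3:912196-912723 a background of 3.90 under a height of 33 gave a fold of 6.93, and the next peak, chr3:937013-937373, had a background of 13.5 and a fold of 2.76.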
